A study of Caenorhabditis elegans with 6 samples.

Results

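The 64 genes described here are the protein-coding genes of *Caenorhabditis elegans* named *pals*, *skr* or *cul* followed by a number, out of 46904 genes in the deposited table, of which 20191 are protein-coding. They comprise 38 *pals* genes, 20 *skr* genes and all 6 cullin (*cul*) genes, and 2 pseudogenes with such names were left out. RNA bound to tagged ribosomes was measured in young adults of strain CLP1481, reared at 20 °C. For 6 h the animals were on bacteria with either the solvent ethanol (EtOH, 3 libraries) or antimycin A at 4.5 µM (3 libraries), a compound that blocks mitochondrial respiration. All 6 libraries, controls included, come from animals with the transgene *twnEx675*. It holds *Ptbh-1::rpl-22::3xHA*, in which the *tbh-1* promoter drives the HA-tagged ribosomal protein used for the pull-down, together with *Pgcy-8::gfp*. The prefix twnEx marks an extrachromosomal array, a kind of transgene that can be lost from some cells. Besides octopaminergic neurons, the *tbh-1* promoter is known to be active in the gonadal sheath. The study is about aversive learning under stress, and its question here is which translated RNAs differ between trained and control animals.

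*pals* genes encode proteins with a shared signature domain and form an expanded family in *C. elegans*. Several are switched on in the intracellular pathogen response (IPR), a transcriptional program that follows infection of the intestine by microsporidia or virus and also prolonged heat. PALS-22 holds this program off and PALS-25, encoded just downstream, promotes it. *skr* genes encode relatives of Skp1, the adaptor that joins an F-box protein to a cullin, and cullins are the scaffolds of multi-subunit ubiquitin ligases that mark proteins for degradation by the proteasome. The 3 families meet in the IPR, since CUL-6 forms an IPR-induced ligase with SKR-3, SKR-4 or SKR-5 and the F-box proteins FBXA-75 and FBXA-158.

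Values are TPM (a gene's share of a library, scaled for gene length and to the same total in each library), so levels can be compared between genes but read depth is unknown. Each library had 9951 to 11608 genes at 1 TPM or more. Markers of several tissues were present in the pull-down. The 3 markers of *tbh-1* neurons summed to 1617 to 1732 TPM with EtOH and 1469 to 2702 TPM with antimycin A, and the 4 gonadal sheath markers to 2794 to 4358 TPM and 4890 to 6545 TPM. Nearly all of the first sum was *tbh-1* itself (1592 to 1722 TPM and 1455 to 2683 TPM), with *tdc-1* at most 23.6 TPM and *cat-1* at most 3.57 TPM. As the *tbh-1* promoter is also active in the sheath, that sum does not stand for neurons alone. Nearly all of the sheath sum was *inx-8* and *inx-9*, with *lim-7* at most 34.1 TPM and *ceh-18* at most 6.48 TPM. The 8 pan-neuronal markers summed to 174 to 373 TPM and 291 to 587 TPM, with *unc-31* listed at 0 in antimycin A replicate 3. In RNA pooled from many cells, fewer cells of a type and less RNA per cell cannot be told apart.

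Calls after antimycin A are given for each family beside those of all tested genes, and no difference between families was tested. Of 13 *pals* genes that could be tested, 5 rose (*pals-19*, *pals-23*, *pals-24*, *pals-31* and *pals-34*) and 0 fell. Of 18 *skr* genes tested, 3 rose (*skr-1*, *skr-3* and *skr-5*) and 2 fell (*skr-8* and *skr-10*, the latter tested only through its EtOH values). Of the 6 *cul* genes limma called 0, none reached an unadjusted p of 0.05 (0 of 6), the authors' deposited table called 0, and limma with the replicate block called 1. The calls are those of limma on log2(TPM + 1) at an adjusted p below 0.05. Among all 11099 genes in the test the calls were 14.2% higher and 6.47% lower. The share of *skr* genes called higher was near that of all tested genes. The 6 *cul* genes are too few to tell 0 calls from those shares. The medians of the log2 fold changes were 0.85 for the tested *pals* genes, -0.30 for the *skr* genes and 0.32 for the *cul* genes, beside 0.21 over all tested genes. Under median-of-ratios scaling, which removes most of that shift, the medians were 0.63, -0.56 and 0.11, beside -0.03, and 3 *skr* genes were higher and 6 lower (12.6% and 10.7% of all genes tested).

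**Figure D1:**
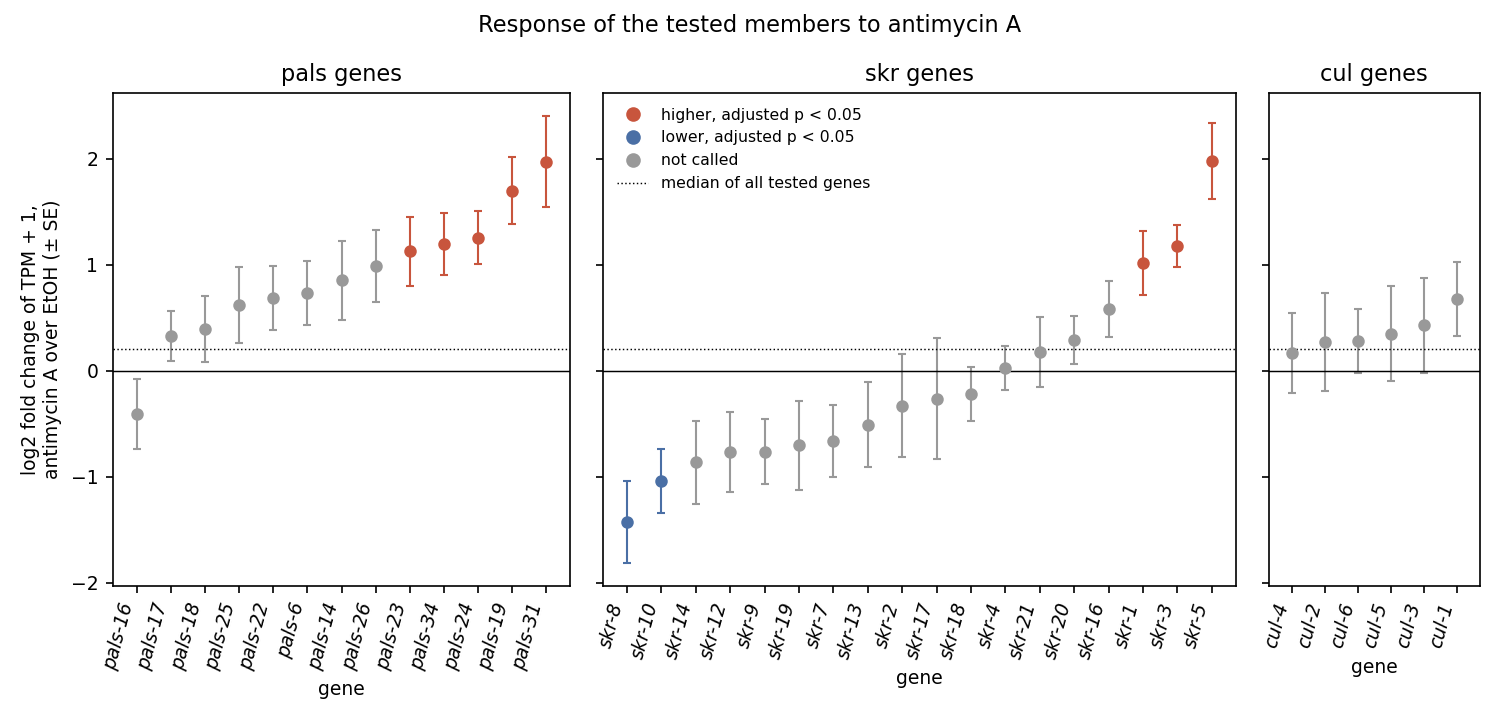
Log2 fold change of TPM + 1, antimycin A over EtOH, for each of the 37 tested genes in 3 panels (*pals*, *skr*, *cul*); points are limma estimates over 3 against 3 libraries, bars are 1 SE, colours mark calls at an adjusted p below 0.05, and the dotted line is the median of all tested genes, 0.21. Of the 13 *pals* genes 12 lie above 0, the *skr* genes run from -1.43 to 1.97, and the *cul* genes stay between 0.17 and 0.68.

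A test needed 1 TPM or more in at least 3 libraries, and 37 of the 64 genes passed that filter. Of these, *pals-6* and *pals-26* passed through antimycin A libraries alone and *skr-10* through EtOH libraries alone. The submitters describe each experiment as a control with a trained sample, and same-numbered libraries deviated together. With the replicate number as a block, 9 *pals* genes were higher and 0 lower, 4 *skr* genes were higher and 7 lower, and 1 *cul* gene higher. The 9 include *pals-6* and *pals-26* and the 7 include *skr-10*, which entered the test through 1 group alone. In that fit 29.6% of all tested genes were higher and 13.0% lower. All 5 *pals* and all 5 *skr* calls of the fit with group alone were among them, in the same direction.

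The *pals* family as a whole made up a larger share of the ribosome-bound RNA after antimycin A. The TPM of all 38 genes summed to 106.5, 99.9 and 91.9 in EtOH replicates 1 to 3 and to 231, 242 and 175 in antimycin A replicates 1 to 3. The lowest antimycin A sum thus lay above the highest EtOH sum, and the ratio of the group means was 2.17 (1.75 under median-of-ratios scaling). A single gene, *pals-34*, made up 32.9% to 48.4% of the sum in each library.

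*pals-34* (WBGene00017823, WBcel235 chromosome V, 7955404 to 7956497, minus strand) read 44.0, 41.1 and 30.2 TPM with EtOH and 99.3, 117 and 58.5 TPM with antimycin A. All antimycin A libraries lay above all EtOH libraries, with replicate 3 lowest in both groups. It rose by 1.19 ± 0.29 (SE) on the log2 scale (adjusted p = 0.0158). The call was lost without EtOH replicate 3 (adjusted p = 0.0586) or without antimycin A replicate 2 (adjusted p = 0.0920). It was the most abundant *pals* gene in every library, above 86.0% to 93.3% of the genes with signal.

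*pals-24* and *pals-23* lie 136 bases apart on the plus strand of chromosome III (120492 to 124641 and 124778 to 126527), upstream of *pals-22* and *pals-25* in 1 run of 4 genes. *pals-24* (WBGene00016219) read 10.9, 11.2 and 12.8 TPM with EtOH and 32.0, 29.4 and 26.3 TPM with antimycin A. Its replicates were tight, the groups did not overlap, and it rose by 1.26 ± 0.25 (adjusted p = 0.00559), a call kept in all 6 fits that leave out 1 library. *pals-23* (WBGene00016218) read 13.1, 8.48 and 8.61 TPM with EtOH and 29.6, 25.1 and 15.8 TPM with antimycin A, again without overlap. It rose by 1.13 ± 0.32 (adjusted p = 0.0331). That call was lost in 4 of the 6 fits, without EtOH replicate 2 or 3 (adjusted p = 0.141 and 0.114) and without antimycin A replicate 1 or 2 (adjusted p = 0.134 and 0.154). No role is given here for *pals-23*, *pals-24* or *pals-34*.

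*pals-22* and *pals-25*, the antagonistic regulators of the IPR, did not pass the test. *pals-22* (WBGene00016216, chromosome III, 132418 to 134401) read 6.01, 5.44 and 6.56 TPM with EtOH and 10.8, 8.38 and 11.8 TPM with antimycin A. The groups did not overlap (0.69 ± 0.31, adjusted p = 0.158), and with the replicate block the gene passed (adjusted p = 0.0102). *pals-25* (WBGene00020540, chromosome III, 134494 to 137975), which starts 92 bases after *pals-22* ends, read 1.47, 1.98 and 1.37 TPM with EtOH and 3.66, 4.39 and 1.51 TPM with antimycin A. Antimycin A replicate 3 fell inside the EtOH range (0.62 ± 0.36, adjusted p = 0.293). The repressor's RNA exceeded the activator's in every library, at a ratio of 4.09, 2.74 and 4.803 in EtOH and 2.96, 1.91 and 7.83 in antimycin A. The ratio overlapped between groups (exact permutation test on log2 ratios, two-sided p = 1 and 1 after Benjamini-Hochberg adjustment over the 8 ratios compared).

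A second run of *pals* genes on chromosome III, 1376945 to 1406230, holds 7 genes, among which *pals-17* is a known repressor of the IPR and *pals-16* and *pals-20* known activators. Only *pals-19* among its 4 tested genes passed. *pals-19* (WBGene00044761, chromosome III, 1401946 to 1403460, plus strand) read 0.994, 1.49 and 1.89 TPM with EtOH and 6.59, 6.45 and 7.67 TPM with antimycin A. The groups were far apart relative to their spread, with a rise of 1.70 ± 0.32 (adjusted p = 0.00369) that was kept in all 6 fits leaving out 1 library. Its repressor neighbour *pals-17* (WBGene00022346, chromosome III, 1390450 to 1391852) read 18.3, 21.0 and 20.9 TPM with EtOH and 25.9, 24.4 and 25.9 TPM with antimycin A. Those groups did not overlap, but the difference was near that of all genes and did not pass (0.33 ± 0.24, adjusted p = 0.421, and 0.05 under median-of-ratios scaling). The ratio of *pals-19* to *pals-17* within a library, which does not depend on scaling between libraries, was 0.0545, 0.0709 and 0.0908 in EtOH and 0.255, 0.264 and 0.296 in antimycin A. The exact permutation test gave a two-sided p = 0.1, the smallest that 3 against 3 libraries allow (0.133 adjusted over 8 ratios). *pals-16*, between them, read 3.02, 1.61 and 1.75 TPM with EtOH and 2.099, 1.29 and 0.750 TPM with antimycin A, lower in 3 of 3 pairs (-0.40 ± 0.33, adjusted p = 0.496). *pals-18* did not pass (0.39 ± 0.31, adjusted p = 0.477), and *pals-20* stayed at or below 0.129 TPM, overlapped on the other strand by *Y82E9BR.5*.

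*pals-31* (WBGene00018614, chromosome V, 636587 to 637501, plus strand) was listed at 0 in EtOH replicate 1 and read 0.920 and 1.93 TPM in EtOH replicates 2 and 3. In antimycin A it read 5.82, 4.34 and 8.35 TPM, all above EtOH. The rise was 1.97 ± 0.43 (adjusted p = 0.00887), the highest fitted value among the tested *pals* genes. It is also the gene among the 10 calls that the authors' deposited table does not call (q = 0.535). *pals-6*, *pals-14* and *pals-26* were higher in 3 of 3 pairs without overlap of the groups, and missed the threshold with group alone (adjusted p = 0.129, 0.154 and 0.0664) but not with the replicate block (adjusted p = 0.0249, 0.00682 and 0.00296). *pals-14* (WBGene00009061, chromosome I, 13139132 to 13141789) read 3.31, 2.34 and 2.08 TPM with EtOH and 5.41, 8.41 and 3.33 TPM with antimycin A. Of the 13 tested *pals* genes, 10 had antimycin A above EtOH with no overlap, and 0 had the reverse. Over all genes tested, 23.1% had antimycin A above EtOH without overlap and 11.6% below. The 10 include *pals-6* and *pals-26*, which entered the test through their antimycin A values. Among genes that reached 1 TPM in at least 1 library of each group, 8 of 11 *pals* genes and 21.1% of 10745 genes had antimycin A above EtOH without overlap. The 8 include *pals-31*, which reached 1 TPM in only 1 EtOH library and met the filter through its 3 antimycin A libraries.

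**Figure D2:**
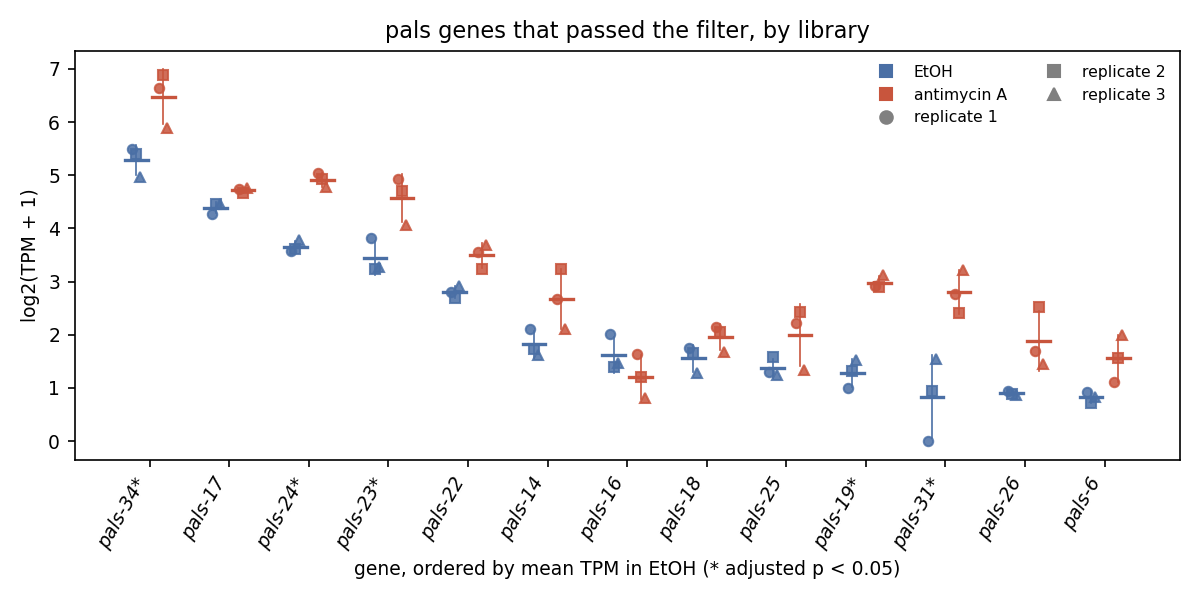
Log2(TPM + 1) of the 13 tested *pals* genes in each library, EtOH in blue and antimycin A in red; symbols mark replicates, horizontal lines the group mean and vertical lines 1 SD (n = 3 each). *pals-34* is highest in both groups, and *pals-31* lies at 0 to 1.93 TPM with EtOH and 4.34 to 8.35 TPM with antimycin A.

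The remaining 25 *pals* genes were too low to test, with no value above 1.62 TPM. Among them 6 were listed at 0 in all libraries (*pals-10*, *pals-12*, *pals-13*, *pals-15*, *pals-21* and *pals-40*), 17 had a higher mean in antimycin A and 2 a higher mean in EtOH. Over all 7546 genes below the filter with signal in some library, 58.4% had a higher mean in antimycin A. Of the 19 *pals* genes with signal, 9 were listed at 0 in all 3 EtOH libraries, as were 18.2% of those 7546 genes. Antimycin A exceeded EtOH without overlap in 6 of those 19 *pals* genes, against 7.37% of the 7546 genes. *pals-5*, whose promoter is the standard reporter of the IPR (WBGene00007659, chromosome I, 13130808 to 13132464), was listed at 0 in EtOH and read 0.231, 0.179 and 0.689 TPM with antimycin A. *pals-39* was listed at 0, 0 and 0.0249 TPM with EtOH and read 0.303, 0.418 and 0.978 TPM with antimycin A. The authors' deposited table calls both (q = 0.00897 and 0.00687). With no filter, limma gave *pals-5* an adjusted p of 0.137 and *pals-39* 0.0730. Several of the low genes had their highest value in antimycin A replicate 3, among them *pals-4* (1.47 TPM), *pals-8* (0.629 TPM, with no other library above 0) and *pals-32* (1.62 TPM). That library also had the highest share of ribosomal RNA genes, 19.03% of its TPM, and the part of this in the low values was not tested.

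The largest run of *pals* genes, 14 genes on chromosome I from 13083321 to 13144588, was low throughout. Their TPM summed to 4.58, 2.98 and 2.98 in EtOH and 6.94, 10.8 and 10.1 in antimycin A, with *pals-14* and *pals-6* the only genes tested. The run of 4 genes with *pals-22* summed to 31.5, 27.1 and 29.3 TPM with EtOH and 76.1, 67.2 and 55.5 TPM with antimycin A. The run with *pals-17* summed to 24.6, 26.4 and 25.9 TPM and 38.0, 35.4 and 36.5 TPM. Each of these sums was higher in all antimycin A libraries than in all EtOH libraries. *pals-3* and *pals-12* overlap on the same strand, so a read from their shared 2287 bases cannot be placed by position alone.

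Among the *skr* genes, *skr-1* encodes the Skp1 relative of the general SCF ligases with CUL-1. It was the most abundant *skr* gene in every library except EtOH replicate 3, where *skr-4* was higher (116 TPM). Its level lay above 94.0% to 97.6% of the genes with signal. *skr-1* (WBGene00004807, chromosome I, 9471341 to 9472642, plus strand) read 206, 137 and 96.6 TPM with EtOH and 358, 305 and 209 TPM with antimycin A. The lowest antimycin A value was just above the highest EtOH value, and replicate 1 was highest in both groups. It rose by 1.02 ± 0.30 (adjusted p = 0.0372). The call stood without EtOH replicate 1 or antimycin A replicate 3 and was lost without EtOH replicate 2 or 3 (adjusted p = 0.114 and 0.132) or antimycin A replicate 1 or 2 (adjusted p = 0.104 and 0.140).

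*skr-2*, a close relative of *skr-1* that lies 707 bases upstream of it (WBGene00004808, chromosome I, 9469704 to 9470633), was not called. It read 49.9, 20.5 and 13.9 TPM with EtOH and 34.5, 16.3 and 12.5 TPM with antimycin A. It was lower in 3 of 3 pairs, within a wide spread (-0.33 ± 0.49, adjusted p = 0.750, and 0.17 without EtOH replicate 1). The ratio of *skr-1* to *skr-2* within a library was 4.12, 6.65 and 6.94 in EtOH and 10.4, 18.7 and 16.8 in antimycin A. These ranges did not overlap (exact permutation test, two-sided p = 0.1, the smallest possible, and 0.133 adjusted over 8 ratios). How the authors' counting split reads between such closely related copies is not given in the sources used here, so their separate values are uncertain.

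Of the 3 Skp1 relatives that work with CUL-6, *skr-3* and *skr-5* rose and *skr-4* was not called. *skr-3* (WBGene00004809, chromosome V, 16121824 to 16122648, plus strand) read 95.5, 79.7 and 75.3 TPM with EtOH and 201, 202 and 166 TPM with antimycin A. The groups were well separated, with a rise of 1.18 ± 0.20 (adjusted p = 0.00223). *skr-5* (WBGene00004811, chromosome V, 17347922 to 17348625, plus strand) read 2.64, 6.23 and 6.85 TPM with EtOH and 19.7, 22.1 and 25.2 TPM with antimycin A. It started low and rose by 1.97 ± 0.36 (adjusted p = 0.00321), the highest fitted value among the *skr* genes. On the other strand *fbxa-188* overlaps 318 of its bases, at mean levels of 1.06 TPM with EtOH and 1.92 TPM with antimycin A, and with no strand setting stated their reads cannot be told apart there. Both calls were kept in all 6 fits that leave out 1 library.

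*skr-4* (WBGene00004810, chromosome V, 19924224 to 19925033, plus strand) read 97.5, 90.3 and 116 TPM with EtOH and 101, 90.3 and 117 TPM with antimycin A. Same-numbered libraries had nearly the same value (0.02 ± 0.21, adjusted p = 0.971, and -0.26 under median-of-ratios scaling). *skr-3* was therefore below *skr-4* in all EtOH libraries, at a ratio of 0.979, 0.882 and 0.651, and above it in all antimycin A libraries, at 1.98, 2.23 and 1.42. The ratio of *skr-5* to *skr-4* was 0.0271, 0.0690 and 0.0592 in EtOH and 0.195, 0.245 and 0.215 in antimycin A. The ratio of *skr-5* to *skr-3* was 0.0276, 0.0783 and 0.0910 and 0.0980, 0.110 and 0.152. None of these ratios overlapped between the groups, and each gave the smallest two-sided p of the exact permutation test (p = 0.1, 0.133 adjusted over 8 ratios), a test that cannot pass the threshold with 3 against 3 libraries.

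**Figure D3:**
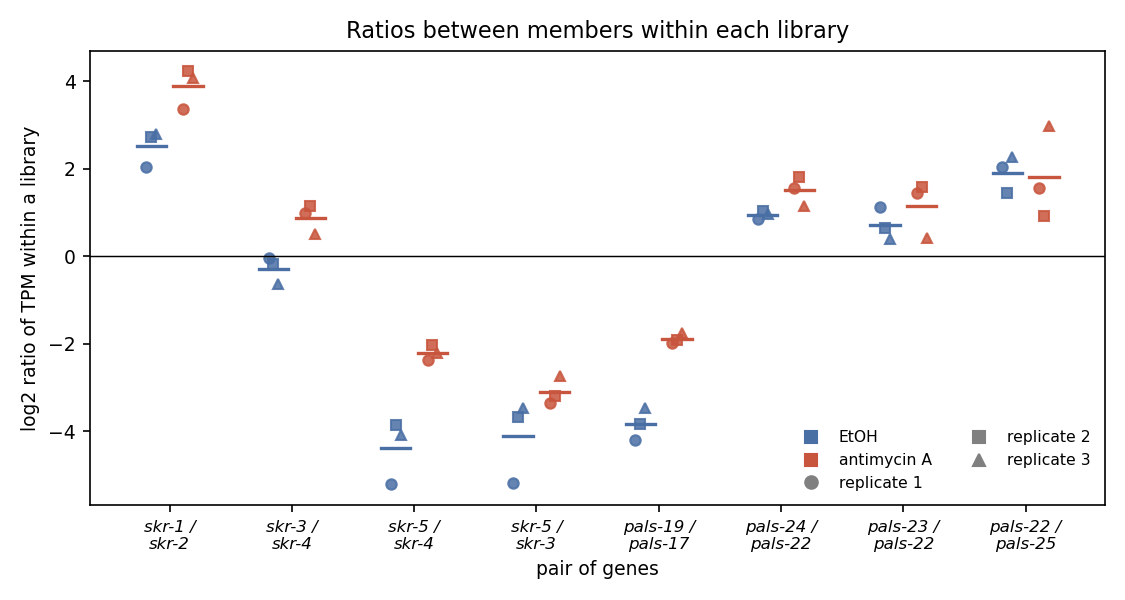
Log2 ratio of the TPM of 2 genes within each library, for 8 pairs of genes, EtOH in blue and antimycin A in red; symbols mark replicates and lines group means. The groups are apart for *skr-1* over *skr-2*, *skr-3* over *skr-4*, *skr-5* over *skr-4* or *skr-3*, *pals-19* over *pals-17* and *pals-24* over *pals-22*, and overlap for *pals-23* over *pals-22* and *pals-22* over *pals-25*.

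The 2 *skr* genes called lower, *skr-8* and *skr-10*, were both at low levels. *skr-7*, *skr-8*, *skr-9* and *skr-10* are known from RNA interference to be needed for normal larval growth. *skr-8* (WBGene00004814, chromosome IV, 17165191 to 17165855, minus strand) read 4.37, 2.85 and 2.18 TPM with EtOH and 1.63, 0.130 and 0.143 TPM with antimycin A. All antimycin A values lay below all EtOH values. It fell by 1.43 on the log2 scale (SE 0.39, adjusted p = 0.0264), a call lost without EtOH replicate 2 (adjusted p = 0.0713), antimycin A replicate 2 (adjusted p = 0.135) or antimycin A replicate 3 (adjusted p = 0.0852).

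*skr-10* (WBGene00004816, chromosome IV, 15946784 to 15947438, plus strand) read 2.68, 2.39 and 1.03 TPM with EtOH and 0.299, 0.628 and 0.379 TPM with antimycin A, again without overlap. It fell by 1.04 on the log2 scale (SE 0.30, adjusted p = 0.0349). It reached 1 TPM in EtOH alone, the group in which it is high, so it could enter the test only if it differed, and leaving out an EtOH library removed it from the test. The call was also lost without antimycin A replicate 1, 2 or 3 (adjusted p = 0.120, 0.0768 and 0.0786). With no filter on low values, where 7.38% of genes were higher and 3.29% lower, 2 *pals* genes (*pals-19* and *pals-24*) and 2 *skr* genes (*skr-3* and *skr-5*) were called. In that fit neither *skr-8* (adjusted p = 0.104) nor *skr-10* (adjusted p = 0.0786) passed. These 2 calls therefore depend on the filter and on single libraries. The calls of *skr-1*, *pals-23*, *pals-34* and *pals-31* depend on the filter too. Their adjusted p with no filter was 0.137, 0.0744, 0.0636 and 0.0555.

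*skr-13*, *skr-9*, *skr-8* and *skr-12* lie in 1 run on chromosome IV, from 17162024 to 17168051. Their TPM summed to 10.7, 9.12 and 6.41 in EtOH and to 4.99, 3.16 and 0.824 in antimycin A. *skr-14* and *skr-7*, 809 bases apart on chromosome V, summed to 14.5, 14.8 and 8.89 TPM and to 9.30, 4.81 and 6.14 TPM. The first pair of sums did not overlap between the groups and the second did. *skr-7* read 7.96, 7.20 and 5.65 TPM with EtOH and 5.56, 3.19 and 3.46 TPM with antimycin A (-0.67 ± 0.34, adjusted p = 0.222). *skr-9* read 2.35, 1.62 and 1.71 TPM and 0.645, 1.35 and 0.260 TPM (-0.76 ± 0.31, adjusted p = 0.119). Neither of these genes overlapped between groups, whereas *skr-12*, *skr-13* and *skr-14* did. *skr-7*, *skr-9*, *skr-12*, *skr-14* and *skr-19* passed with the replicate block (adjusted p = 0.0213, 0.0201, 0.0346, 0.00890 and 0.00646). Of the 18 tested *skr* genes, 4 were higher and 4 lower in antimycin A with no overlap of the groups, beside 23.1% and 11.6% of all genes tested. Without *skr-10* the lower count was 3 of 17. The 3 include *skr-8* and *skr-9*, each of which reached 1 TPM in only 1 antimycin A library.

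The other abundant *skr* genes did not pass. *skr-18* (WBGene00018935) read 58.8, 40.9 and 41.9 TPM with EtOH and 49.6, 37.2 and 34.1 TPM with antimycin A (-0.22 ± 0.25, adjusted p = 0.660). *skr-20* (WBGene00004826) read 39.8, 40.9 and 55.0 TPM and 56.0, 49.2 and 59.9 TPM (0.29 ± 0.23, adjusted p = 0.477, and -0.03 under quantile normalization). Its neighbour *skr-19*, 97 bases away on the same strand of chromosome X, read 21.6, 13.7 and 11.4 TPM and 14.98, 9.52 and 4.67 TPM (-0.70 ± 0.42, adjusted p = 0.311). The neighbours thus had opposite signs, and whether they differ from each other was not tested. *skr-16* read 16.8, 14.2 and 12.7 TPM and 25.03, 19.5 and 22.2 TPM without overlap (0.58 ± 0.26, adjusted p = 0.163), while the replicate block gave an adjusted p of 0.0112. *skr-17* and *skr-21* overlapped between groups. *skr-6* was listed at 0 in all libraries and *skr-15* read at most 1.32 TPM, so neither was tested. The 20 *skr* genes together summed to 644, 485 and 454 TPM with EtOH and 896, 771 and 667 TPM with antimycin A, a ratio of means of 1.47 (1.21 under median-of-ratios scaling).

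**Figure D4:**
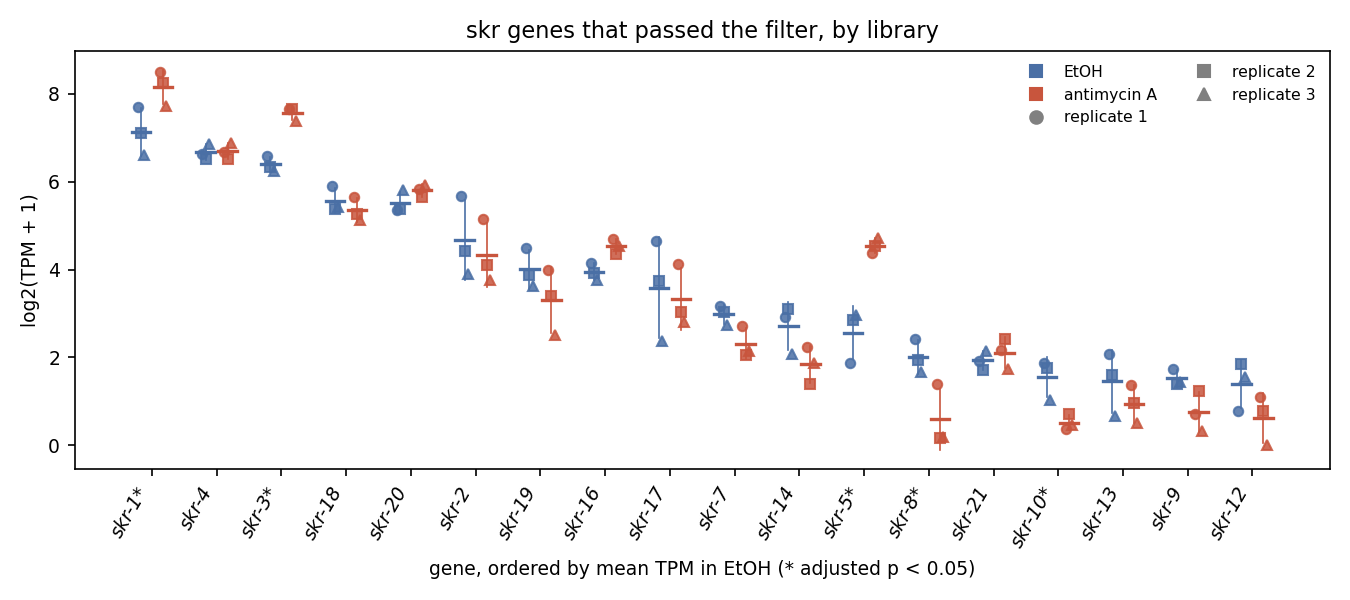
Log2(TPM + 1) of the 18 tested *skr* genes in each library, EtOH in blue and antimycin A in red; symbols mark replicates, horizontal lines the group mean and vertical lines 1 SD (n = 3 each). *skr-1*, *skr-3* and *skr-5* lie higher in antimycin A, *skr-4* has nearly the same values in both groups, and *skr-8* and *skr-10* lie lower.

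The cullin genes read 1.08 to 16.4 TPM and none was called, which does not show that they were unchanged. *cul-1*, the scaffold of SCF ligases, which in *C. elegans* limits cell division (WBGene00000836, chromosome III, 10471237 to 10475245), read 10.5, 5.68 and 6.38 TPM with EtOH and 16.2, 12.05 and 9.34 TPM with antimycin A. It was higher in 3 of 3 pairs, but antimycin A replicate 3 lay inside the EtOH range (0.68 ± 0.35, adjusted p = 0.227), and the replicate block gave an adjusted p of 0.00972. *cul-6*, the IPR cullin (WBGene00000841, chromosome IV, 12586511 to 12590428), was the lowest of the family in each library. It read 1.59, 1.18 and 1.11 TPM with EtOH and 2.45, 1.99 and 1.08 TPM with antimycin A (0.28 ± 0.30, adjusted p = 0.631, and -0.03 under quantile normalization). Antimycin A replicates 1 and 2 lay above all EtOH libraries and replicate 3 below them.

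*cul-2*, the scaffold of ligases with elongin and ZYG-11 or LRR-1, read 16.2, 6.00 and 5.32 TPM with EtOH and 16.4, 8.84 and 6.77 TPM with antimycin A (0.27 ± 0.46, adjusted p = 0.789, and -0.06 under quantile normalization). *cul-3*, which with MEL-26 removes the meiotic katanin MEI-1, read 11.1, 4.17 and 3.40 TPM and 10.2, 8.74 and 5.17 TPM (0.43 ± 0.44, adjusted p = 0.619). *cul-4*, which limits replication licensing with DDB-1, read 7.43, 3.95 and 4.04 TPM and 7.69, 6.17 and 3.78 TPM (0.17 ± 0.38, adjusted p = 0.852, and -0.08 under median-of-ratios scaling). *cul-5* read 5.76, 2.17 and 1.83 TPM and 5.77, 5.07 and 2.05 TPM (0.35 ± 0.45, adjusted p = 0.703). In all 6 cullin genes replicate 1 was the highest library of its group, and the spread between replicates exceeded the difference between group means for *cul-2* to *cul-5*.

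**Figure D5:**
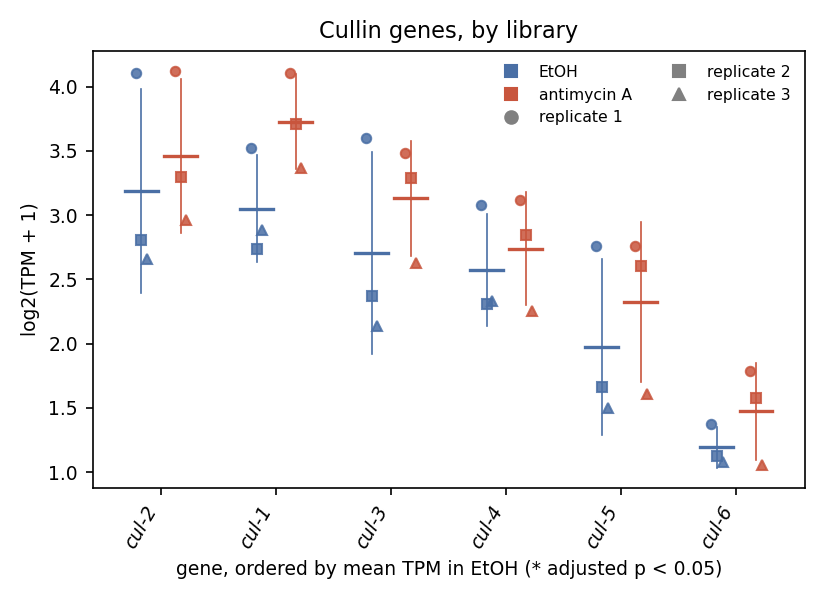
Log2(TPM + 1) of the 6 cullin genes in each library, EtOH in blue and antimycin A in red; symbols mark replicates, horizontal lines the group mean and vertical lines 1 SD (n = 3 each). Replicate 1 is the highest library in each group, the groups overlap for each gene, and *cul-6* is the lowest gene, at 1.08 to 2.45 TPM.

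Of 13 other genes of the IPR and of the CUL-6 ligase, 5 were tested, 2 rose and 1 fell. Among all tested genes 14.2% were higher and 6.47% lower, and 5 genes are too few to compare with those shares. *zip-1*, a bZIP transcription factor that drives part of the IPR, read 5.48, 3.92 and 4.32 TPM with EtOH and 14.9, 12.1 and 10.3 TPM with antimycin A (1.27 ± 0.31, adjusted p = 0.0168). *K02D7.1*, the gene of the purine nucleoside phosphorylase PNP-1, whose loss turns the IPR on, rose by 0.76 ± 0.20 (adjusted p = 0.0246), and missed the threshold under median-of-ratios scaling (adjusted p = 0.210). *sdz-6* fell by 0.90 on the log2 scale (SE 0.27, adjusted p = 0.0387), from 2.01, 1.79 and 2.23 TPM to 0.711, 0.846 and 0.337 TPM. Each of these 3 calls was lost when 1 library was left out (highest adjusted p of 0.0942, 0.0965 and 0.105).

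Among the partners of CUL-6, *skr-3* and *skr-5* were called higher, as given above, and none was called lower with group alone. The RING protein gene of the CUL-6 ligase, *rcs-1* (*C28G1.5* in the table), read 34.9, 29.7 and 28.4 TPM with EtOH and 22.8, 21.7 and 17.8 TPM with antimycin A. It was lower without overlap but not called (-0.56 ± 0.24, adjusted p = 0.149). It passed with the replicate block (adjusted p = 0.00972) and under median-of-ratios scaling (adjusted p = 0.0234). The F-box genes were too low to test, *fbxa-75* at 0 in EtOH and 0.183, 0.0671 and 0.713 TPM with antimycin A and *fbxa-158* at 0, 0.346 and 0.228 TPM and 0.551, 0.844 and 1.59 TPM. Both read higher in antimycin A without overlap, as did 7.37% of genes below the filter with signal in some library. Known marker genes of the IPR were at or near 0. *chil-28* was listed at 0 throughout, *chil-27* and *F26F2.1* had signal in antimycin A replicate 3 alone (0.163 and 0.0485 TPM), and *F26F2.3* and *F26F2.4* stayed at or below 0.420 TPM. *eol-1* read 0, 0.0824 and 0.0289 TPM with EtOH and 0.724, 0.622 and 1.17 TPM with antimycin A.

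The machinery shared by all cullin ligases gave 0 calls with group alone, a fit in which 14.2% of all tested genes were higher and 6.47% lower. All 14 genes for the RING subunits, NED-8 and its conjugation enzymes, CAND-1 and the COP9 signalosome were tested, and limma called 0 of them (2 had an unadjusted p under 0.05, and 5 were higher with the replicate block). Of 14 substrate receptors and adaptors, all tested, *wdr-23* was the 1 gene called. With the replicate block 5 were higher, *wdr-23*, *mel-26*, *elc-1*, *fem-1* and *zer-1*. In that fit 29.6% of all tested genes were higher, so the 5 of 14 in each list lie near the share of all genes. WDR-23 directs the CUL-4 and DDB-1 ligase to the stress factor SKN-1, and its gene read 15.3, 6.63 and 6.88 TPM with EtOH and 36.6, 22.4 and 16.7 TPM with antimycin A (1.33 ± 0.40, adjusted p = 0.0386). That call was lost in at least 1 fit without a library (highest adjusted p = 0.157).

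Markers of some other tissues also differed between the groups, and their part in the results was not tested. Over all tested genes 14.2% were higher and 6.47% lower with group alone, and 29.6% and 13.0% with the replicate block. IPR genes are known from the intestine, and of 9 intestine markers 6 fell (8 with the replicate block) and *ges-1* rose, with sums of 8957 to 10765 TPM with EtOH and 2188 to 5297 TPM with antimycin A and none at 0. Of 6 epidermis markers 4 were tested, *dpy-7* and *dpy-10*, both below 1 TPM in EtOH, rose and *col-19* fell. The sums of 331 to 398 TPM and 162 to 300 TPM were nearly all *col-19* (319 to 376 TPM and 148 to 273 TPM). With antimycin A *dpy-7* read at most 7.11 TPM and *dpy-10* at most 6.45 TPM, so the sums do not show their rise. *bli-1* was listed at 0 in EtOH replicate 2 and antimycin A replicates 2 and 3. Of the 6 germ line and oocyte markers 0 were called by limma and 0 had an unadjusted p under 0.05, while *rme-2* was higher with the replicate block (adjusted p = 0.0137), with sums of 82.7 to 295 TPM and 102 to 222 TPM. Of the 4 gonadal sheath markers, the 3 of *tbh-1* neurons and the pan-neuronal markers, 0 were called by limma, with 2, 0 and 1 at an unadjusted p under 0.05. With the replicate block the sheath markers *inx-8* and *inx-9* (adjusted p = 0.0206 and 0.000751) and the neuronal *snb-1* (adjusted p = 7.36e-07) were higher. Of 4 body muscle markers 3 were tested, and limma called 0 with group alone and 0 with the block. None of them had an unadjusted p under 0.05. They summed to 101 to 192 TPM with EtOH and 112 to 194 TPM with antimycin A.

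The authors' deposited table calls 7 of the 38 *pals* genes higher and 0 lower, 3 of the 20 *skr* genes higher and 5 lower, and 0 of the 6 cullin genes, at q below 0.05. Over all 46904 genes that table calls 3.23% higher and 2.94% lower. That base holds all gene types, and 30522 to 32608 of its genes were listed at 0 in each library. Its shares are therefore a low base for families in which many genes have signal. It shares 9 of the 10 calls made here, in the same direction. Its further calls are *pals-5*, *pals-26* and *pals-39* (higher, q = 0.00897, 0.0440 and 0.00687) and *skr-7*, *skr-14* and *skr-19* (lower, q = 0.0447, 0.0404 and 0.0106).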

How the data were processed

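The authors deposited TPM values for 6 libraries, per the file headers. The same deposited table gives the authors' group means, their SD (treated as a score), the fold ratio of the means, its log2 and, from a test not described, p-values with q-values. The submitters' processing notes name bcl2fastq 2.20, Trimmomatic 0.36, HISAT2, StringTie 2.1.4, DESeq2 1.28.1 and genome build WBcel235. The sources used here give no strand setting, test formula or rule for reads shared by related copies. Libraries were made from anti-HA immunoprecipitates, per the labels' protocols.

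Genes without signal are listed at 0.0001 TPM and were set to 0; a 0 can be a failed estimate. TPM hold no read counts, so no counting interval is given. Differences were fitted on log2(TPM + 1), so with pseudocount 1, using the trend option of limma 3.58.1 under R 4.3.3 and group as the only term; a gene needed 1 TPM in 3 libraries. Values with ± in brackets are log2 fold changes on the log2(TPM + 1) scale with their SE, a scale that understates low genes. Adjusted p are limma's Benjamini-Hochberg values over all 11099 genes. Fits without a library use the other 5. Ratios within a library were tested by exact permutation (scipy 1.17.1) and were chosen after seeing the data. The limma code was tested on simulated data. Columns of other samples numbered 0.

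The correlation of same-numbered libraries' deviations was 0.679 (replicate 1), 0.307 (replicate 2) and 0.586 (replicate 3). The numbers therefore pair the libraries, and a fit with that block is 1 of 18 alternatives, which also vary pseudocount, filter, scaling and the libraries used. Replicates were independent experiments, per the labels.

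Members and gene lists were chosen with earlier results of these data known. Per-library values are given for called genes, *pals-5*, *pals-22*, *pals-25*, *skr-1* to *skr-5*, all *cul* genes and the 5 most abundant of each family. Other genes with values, among them *C28G1.5*, *fbxa-75*, *fbxa-158* and *eol-1*, were named after their values were seen. Of the list symbols, *rcs-1* and *pnp-1* were matched through the reference table to *C28G1.5* and *K02D7.1*. Runs of genes are members with gaps of at most 20 kb. Figures used matplotlib 3.10.9.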

Additional observations from a re-analysis of the deposited data

How the results depend on the processing

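All 10 calls kept their direction and stayed below the threshold under median-of-ratios scaling and quantile normalization, and 4 did with no filter on low values. The number of *pals* calls was 2 with no filter, 3 with a filter of mean TPM 5, 9 with the replicate block and 11 with sample quality weights, whose estimate did not converge. The number of *skr* calls was 2 with no filter, 3 with a filter of mean TPM 5, 9 under median-of-ratios scaling, 10 under quantile normalization, 11 with the replicate block and 12 with quality weights. The number of *cul* calls was 1 with the block and 6 with quality weights. All genes called numbered 4724 with the block and 7496 with quality weights, and listed pathway genes 14 and 26. Over 9 fits without 1 library or without both libraries of a replicate number, the counts ranged from 0 to 5 for *pals*, 0 to 5 for *skr*, 553 to 2748 for all genes and 0 to 10 for the pathway genes. The 0 for *pals* and *skr* came without both libraries of replicate 2, which leaves 2 against 2 libraries.

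The *pals* median log2 fold change was 1.20 with pseudocount 0.1, 0.35 with no filter and 1.30 with quality weights. The *skr* median was 0.024 with a filter of mean TPM 5, -0.56 under median-of-ratios scaling and -0.65 under quantile normalization, and -0.52 to 0.087 over the left-out fits. The *cul* median was 0.70 with quality weights and 0.13 to 0.73 over the left-out fits. Summed TPM after median-of-ratios scaling gave ratios of 1.75 for *pals* and 1.21 for *skr*. Signs turned for uncalled genes: *cul-2* (-0.061 quantile, -0.061 to 0.73 over left-out fits), *cul-4* (-0.076 median-of-ratios, -0.15 quantile, -0.022 to 0.42 left out), *cul-6* (-0.026 quantile), *skr-2* (-0.74 to 0.17 left out), *skr-4* (-0.26 median-of-ratios, -0.25 quantile, -0.022 quality weights, -0.072 to 0.12 left out) and *skr-20* (-0.028 quantile). The cause of these changes was not tested. The blocked fit changed no call among the *pals*, *skr* and *cul* genes other than those given. Unknown depth limits what can be said of genes below 1 TPM.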
